A study of Mus musculus with 6 samples.

Results

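The NR4A and EGR immediate early factors were followed across both sides of the cochlear nucleus, the first brainstem station of hearing, where auditory nerve fibres end. They are the 7 genes Nr4a1, Nr4a2, Nr4a3, Egr1, Egr2, Egr3 and Egr4, and every probe set annotated to 1 of them alone was taken, which gave 10 of the 22690 probe sets of the array and 7 of 12393 named genes. Mice at postnatal day 21 had tetrodotoxin, which silences action potentials by blocking sodium channels, infused into 1 cochlea by osmotic pump for 24 h. The ipsilateral samples were cochlear nucleus tissue of the infused side and the contralateral samples the same nucleus of the other side, with 3 samples per side, each pooled from 10 to 12 mice and hybridised to 1 Affymetrix array. Both sides thus came from mice that carried the pump and the toxin. No untreated animals were analysed here, so a difference could come from either side, and the labels do not give strain or sex. Values are log2 GCRMA signals, a difference is ipsilateral minus contralateral, and signals of different probe sets are not set against each other. In bulk tissue, fewer cells of a type and less RNA per cell cannot be told apart.

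Both families are transcription factors whose genes are switched on within minutes of a calcium or growth factor signal and need no new protein for that. NR4A proteins are orphan nuclear receptors that bind DNA as monomers at the NBRE element, and Nr4a1 and Nr4a2 can pair with retinoid X receptors. EGR proteins bind GC-rich sites through zinc fingers and are held back by the corepressors Nab1 and Nab2. In neurons, CREB with its CRTC coactivators and SRF with the ternary complex factors, which the ERK cascade phosphorylates, act on their promoters, and Egr1 and Nr4a1 are widely used as markers of recent firing.

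The promoters of 3 members are shown, chosen by their values. Nr4a1 had the most negative difference of the members, and Egr4 lay at the floor of the array. Nr4a2, of the same family as Nr4a1, had a difference near 0 on its tested probe set, which was dim (mean 4.04). Each run is the 250 bases before a transcription start in RefSeq (GRCm38.p6), written 5′ to 3′ on the strand of the gene. Capitals mark the core of the cyclic AMP response element, TGACG, or CGTCA where it lies on the opposite strand.
Nr4a1, chr15:101266596-101266845, plus strand: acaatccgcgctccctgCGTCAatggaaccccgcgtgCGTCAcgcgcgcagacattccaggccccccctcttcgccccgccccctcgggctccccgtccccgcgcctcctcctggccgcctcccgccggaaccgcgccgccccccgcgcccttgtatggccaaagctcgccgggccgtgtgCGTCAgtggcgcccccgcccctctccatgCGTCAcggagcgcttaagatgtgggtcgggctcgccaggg
Nr4a2, chr2:57124004-57124253, minus strand: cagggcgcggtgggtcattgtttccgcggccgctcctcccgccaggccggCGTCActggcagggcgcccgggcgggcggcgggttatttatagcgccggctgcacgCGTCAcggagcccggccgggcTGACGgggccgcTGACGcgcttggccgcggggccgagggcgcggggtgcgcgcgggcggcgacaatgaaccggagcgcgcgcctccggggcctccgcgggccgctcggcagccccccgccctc
Egr4, chr6:85513590-85513839, minus strand: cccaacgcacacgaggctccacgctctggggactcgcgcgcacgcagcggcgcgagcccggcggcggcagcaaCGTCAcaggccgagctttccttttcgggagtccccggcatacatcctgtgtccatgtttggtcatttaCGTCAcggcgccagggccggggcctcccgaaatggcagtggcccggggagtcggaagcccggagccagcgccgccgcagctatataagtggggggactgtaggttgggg
The Nr4a1 window held 4 such cores, which began 233, 213, 69 and 40 bases before the start. The Nr4a2 window also held 4, at 200, 144, 123 and 111 bases, and the Nr4a3 window 4 as well. Egr4 had 2, at 177 and 109 bases. Windows of 5 of the 7 members were searched, with 5 for Egr2, of which 3 held 2 cores each and the other 2 held 0. These 3 windows overlap over most of their length, and their 2 cores are the same sites. Egr1 and Egr3 were not among the member windows searched, so the member counts here say nothing of them. The member search left out a chromosome by a set rule, while the shares over all windows left out none. The core occurred at least once in 17.8% of the 32851 windows of all genes and 4 times or more in 0.137%, a number chosen after the members' counts were seen. These shares are not matched for base composition: the windows of Nr4a1, Nr4a2 and Nr4a3 were 74.4%, 80% and 63.6% G or C, against a median of 52.4% over all windows, and the core holds a CG. The full palindrome TGACGTCA, which contains the core on both strands, was in 1.55% of all windows and in 0 of the 9 member windows. A CArG box, the site of SRF, was in 1.47% of all windows and in 4 of the 5 Egr2 windows. In the 3 windows that overlap over most of their length it is the same box, so these are not separate finds. The EGR site GCGTGGGCG (0.536% of windows) and the NBRE AAAGGTCA (1.34%) were searched on both strands and found in 0 of the member windows. A link between the number of cores and the differences of the members was not tested. These matches are letters in a window and say nothing of binding.

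**Figure D1:**
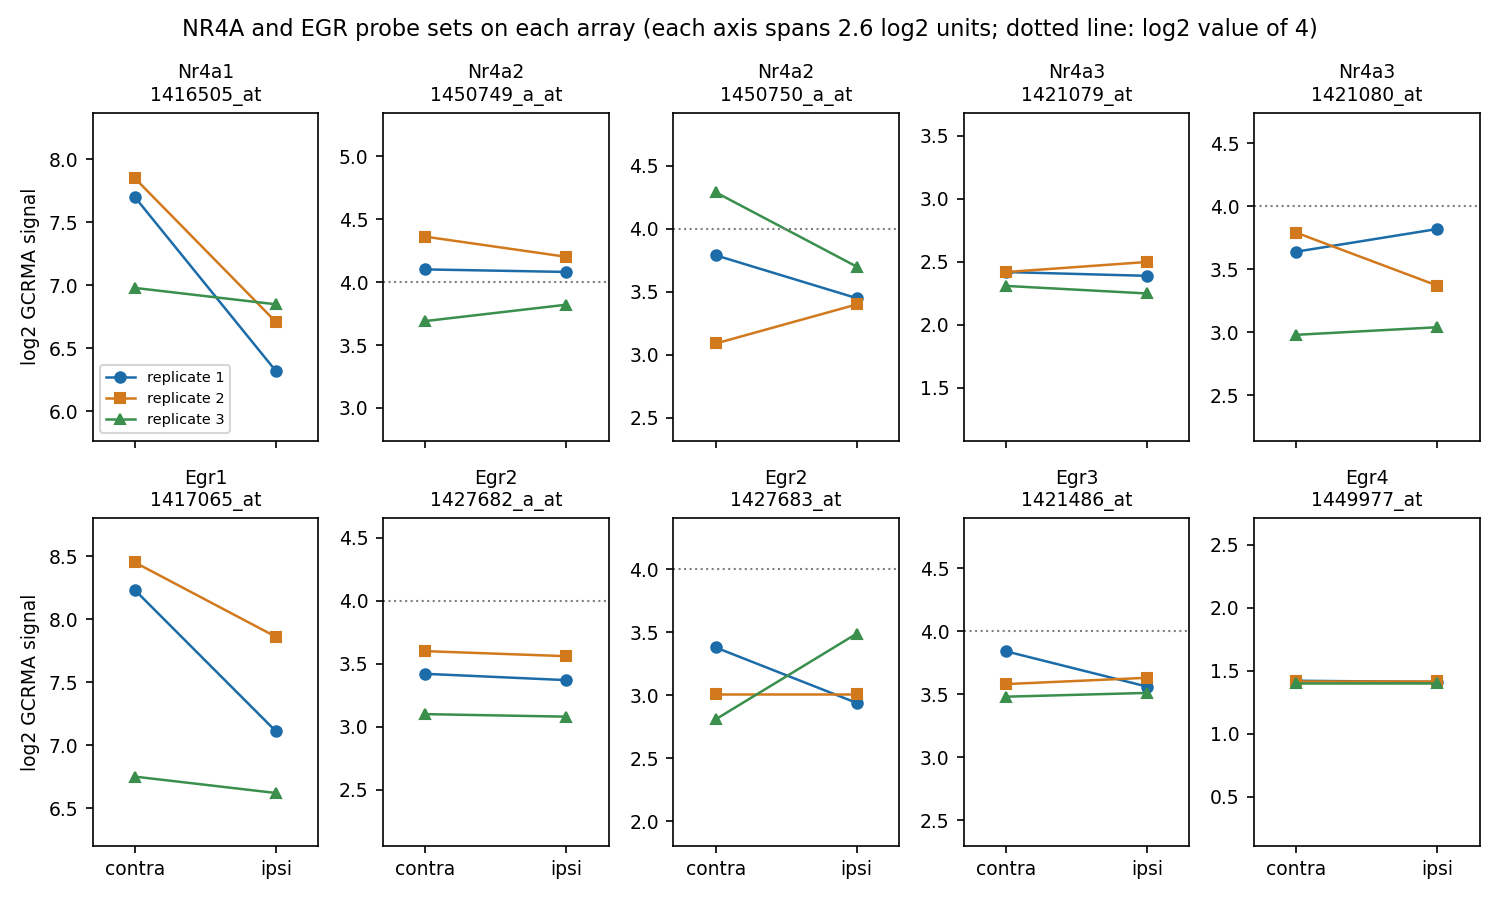
Log2 GCRMA signal of each of the 10 member probe sets on the contralateral (contra) and ipsilateral (ipsi) array of each replicate, lines joining arrays of the same replicate number; each axis spans the same log2 range and the dotted line marks the minimum mean of 4. Nr4a1 and Egr1 are lower on the ipsilateral array of all 3 replicates, with a small step in replicate 3, and Egr4 is flat at 1.40 to 1.42.

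Nr4a1 encodes the receptor Nur77. Its probe set (1416505_at) measured 7.70, 7.85 and 6.98 on contralateral arrays 1, 2 and 3 and 6.32, 6.71 and 6.85 on the ipsilateral arrays. All 3 ipsilateral values lay below all 3 contralateral ones, although contralateral array 3 and ipsilateral array 3 were close to each other. A separation of the sides in this direction was found in 3.44% of the 15298 probe sets tested. Nr4a1 was the 1 of 10 member probe sets, of which 3 were tested, that showed it. The means were 7.51 ± 0.47 and 6.62 ± 0.28 (SD, n = 3 each), a difference of -0.89 (SE 0.25, 95% interval from -1.49 to -0.29), or a 1.85-fold lower signal. By limma it had rank 71 of the 15298 probe sets, with an unadjusted p under 0.05, and 20 probe sets had a more negative difference. Adjusted over all probe sets the limma p was 1.00, so the difference did not pass. The two-sided exact permutation p was 0.1, the smallest that 3 against 3 can give.

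The difference of Nr4a1 was not even over the replicates. It was -1.39 in replicate 1, -1.15 in replicate 2 and -0.13 in replicate 3. On the contralateral side array 3 differed from the mean of arrays 1 and 2 by -0.80. Without contralateral replicate 3 the difference was -1.15 and without the replicate 3 pair -1.27. It was -0.64 without the replicate 1 pair and -0.76 without the replicate 2 pair. In these 2 of 17 alternatives the unadjusted limma p was no longer under 0.05. The direction was the same in all 17, with an adjusted limma p between 0.991 and 1.00.

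Nr4a2, which encodes Nurr1, had 2 probe sets that did not move together. The first (1450749_a_at) measured 4.10, 4.36 and 3.69 contralaterally and 4.08, 4.20 and 3.82 ipsilaterally. Its sides overlapped in full, with replicate 3 the lowest on both. The difference was -0.01 (95% interval from -0.46 to 0.43, two-sided exact permutation p = 0.9). Its mean of 4.04 was just above the value of 4 that a probe set needed to be tested. The second (1450750_a_at) measured 3.79, 3.09 and 4.29 contralaterally and 3.45, 3.40 and 3.70 ipsilaterally, a difference of -0.21. Contralateral array 3 was its highest value, where the first probe set had its lowest.

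Nr4a3, which encodes Nor1, was too dim on both probe sets to be tested. Signals of 1421080_at were 3.64, 3.79 and 2.98 contralaterally and 3.82, 3.37 and 3.04 ipsilaterally, so the replicates differed by more than the sides. Those of 1421079_at lay between 2.25 and 2.50 on all 6 arrays.

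Egr1 encodes the zinc finger factor also known as Zif268 or Krox-24. Its probe set (1417065_at) measured 8.23, 8.45 and 6.75 on contralateral arrays 1, 2 and 3 and 7.11, 7.86 and 6.62 on the ipsilateral arrays. The sides overlapped, because contralateral array 3 was below ipsilateral arrays 1 and 2. The means were 7.81 ± 0.92 and 7.20 ± 0.62 (SD, n = 3 each), a difference of -0.61 (SE 0.50, 95% interval from -1.79 to 0.57), or a 1.53-fold lower signal. The adjusted limma p was 1.00 and the two-sided exact permutation p 0.3.

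Within replicates Egr1 was lower on the infused side in each case, by unequal amounts: -1.11 in replicate 1, -0.59 in replicate 2 and -0.13 in replicate 3. A decrease in 3 of 3 replicates was found in 13% of the probe sets tested. Among the 10 member probe sets 3 showed it, those of Nr4a1 and Egr1 and 1 of Egr2 too dim to be tested. With the replicate number as a block, which takes the shared level of a replicate out of the error, the SE of Egr1 was 0.20 (95% interval from -1.14 to -0.08). The unadjusted limma p was then under 0.05 for Egr1 and Nr4a1, and the adjusted limma p was 0.991 for both. Of the 3 member probe sets tested, the number with an unadjusted limma p under 0.05 was thus 1 without the block, against 2.38% of all probe sets, and 2 with it, against 3.72%. Counting lower probe sets alone, these shares were 1.22% without the block and 1.97% with it. After adjustment it was 0 in both fits, as over all probe sets.

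The replicates of Egr1 spread more than those of most probe sets. Its SD within a side was 0.79, and 0.477% of tested probe sets had a larger one, where the median was 0.16. Nr4a1 had an SD of 0.39, with 7.48% of probe sets above it. With the block the residual SD of Egr1 was 0.35, since array 3 was low on both sides, and that of Nr4a1 was 0.47. Replicate 3 of Egr1 differed from the mean of replicates 1 and 2 by -1.59 contralaterally and by -0.87 ipsilaterally. For Nr4a1 this was -0.80 contralaterally and 0.34 ipsilaterally, so the ipsilateral arrays of the 2 genes did not share an order. Without contralateral replicate 3 the difference of Egr1 was -1.14 and without contralateral replicate 2 it was -0.29. The unadjusted limma p of Egr1 was under 0.05 in 3 of 17 alternatives.

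Egr2, known as Krox-20, drives myelination in Schwann cells and shapes the hindbrain in the embryo. Its probe set 1427682_a_at measured 3.42, 3.60 and 3.10 contralaterally and 3.37, 3.56 and 3.08 ipsilaterally. The sides of each replicate lay within 0.06 of each other, and replicate 3 was the lowest on both. Its other probe set, 1427683_at, measured 3.38, 3.01 and 2.81 contralaterally and 2.94, 3.01 and 3.49 ipsilaterally, with replicates that went in opposite directions. Egr3, a relative of Egr1 that binds the same sites, measured 3.84, 3.58 and 3.48 contralaterally and 3.56, 3.63 and 3.51 ipsilaterally. Egr4 lay between 1.40 and 1.42 on all 6 arrays, where the lowest value of any probe set was also 1.40 to 1.42, so this probe set carried no measurable signal.

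The 7 member probe sets with a mean of 4 or less had differences from -0.21 to 0.08. They were left out of the test. In the limma fit with no filter the 95% interval ran from -0.90 to 0.48 for the dim Nr4a2 probe set, which differed by -0.21. The intervals ran from -0.71 to 0.58 and from -0.24 to 0.23 for the probe sets of Nr4a3. They ran from -0.45 to 0.37 and from -0.40 to 0.56 for those of Egr2, and from -0.34 to 0.21 for Egr3. Differences within these intervals could not be told from 0. In 6 of the 7 contralateral array 3 was the lowest of its side and in 5 of the 7 ipsilateral array 3. The mean over all 7328 dim probe sets was also lowest there, at 2.80 on both arrays of replicate 3 and 2.89 to 2.95 on the other arrays. How many of all dim probe sets were lowest on array 3 was not counted, so the member counts are not read as a trait of the members. Over the 7 genes, each by its brightest probe set, the median difference was -0.06, against -0.00395 over all named genes on the array.

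**Figure D2:**
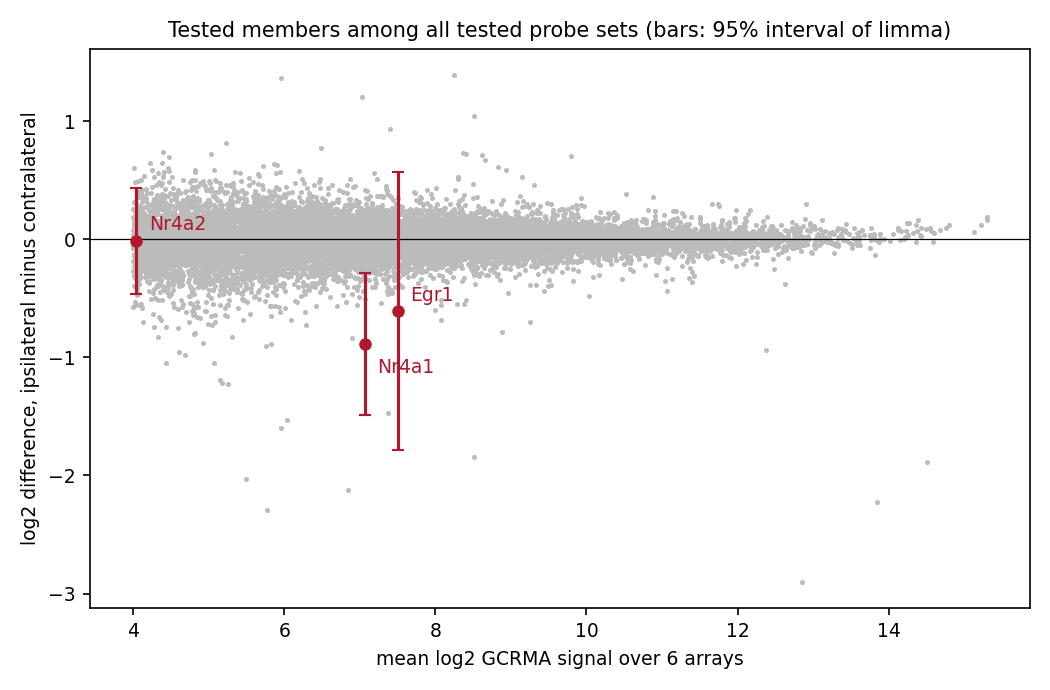
Log2 difference, ipsilateral minus contralateral, against mean log2 GCRMA signal for all 15298 tested probe sets (grey), with the 3 tested member probe sets in red and their 95% intervals from limma. Nr4a1 (-0.89) and Egr1 (-0.61) lie below most probe sets, with an interval for Egr1 that reaches 0.57, and Nr4a2 lies at -0.01.

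Array signal for other cell types was read beside these values. Over all 8754 named genes tested, 50.9% were lower on the infused side, the share to set beside the list counts below. Neuronal genes were bright, with the synaptic protein gene Snap25 at 14.52 ± 0.03 contralaterally and 14.60 ± 0.08 ipsilaterally, and 5 of 9 tested neuronal markers were lower on the infused side. Of the auditory brainstem markers 5 of 12 could be tested and 2 of the 5 were lower. Kcna1, the Kv1.1 potassium channel gene, measured 10.94 and 11.07, and the hindbrain gene Hoxa2 5.45 on both sides, while Slc6a5, the transporter of glycinergic neurons, was too dim (3.22 and 2.83). The other tested genes of this list, Lhx9, Calb2 and Kcnc1, differed by -0.16, -0.05 and 0.007. Lhx9 was lower in 3 of 3 replicates, with an unadjusted limma p of 0.14. Its sides did not overlap, as in 3.44% of the probe sets tested in that direction. Microglia and macrophages can also express Egr1 and Nr4a1. Of their markers 10 of 11 were higher ipsilaterally, with mean levels of 6.98 to 7.18 on the contralateral arrays and 7.15 to 7.29 on the ipsilateral arrays, and 3 of the 10 had an unadjusted limma p under 0.05, where 1.16% of all probe sets were higher at that p. Endothelial markers were lower for 7 of 11 (6.76 to 6.82 and 6.65 to 6.81), those of meninges and mural cells for 7 of 11 (6.88 to 7.03 and 6.81 to 6.91) and those of cerebellar granule and Purkinje cells for 6 of 11 (9.29 to 9.62 and 9.17 to 9.64). Among the last, the Purkinje cell genes Calb1 (-0.48), Car8 (-0.31) and Slc1a6 (-0.25), named after their values were seen, were lower in 3 of 3 replicates. The sides of Calb1 did not overlap, and its unadjusted limma p was under 0.05 (adjusted p = 1.00), as was that of all 3 with the replicate block. Pcp2 and Pcp4, also of Purkinje cells, differed by -0.30 and -0.0001, and each was lower in 2 of 3. The granule cell genes Gabra6, Neurod1 and Zic2 differed by 0.07, 0.14 and -0.09, and Zic2 was also lower in 3 of 3. Oligodendrocyte markers were higher for 8 of 8 (12.7 to 12.9 and 12.9 on all 3), astrocyte markers for 8 of 10 (10.1 to 10.3 and 10.3 on all 3) and Schwann cell markers, of which some are Egr2 targets, for 4 of 5 (9.37 to 9.69 and 9.46 to 9.62). The part of these cells in the differences of Nr4a1 and Egr1 was not tested. Choroid plexus markers averaged 9.19 on ipsilateral array 1, 4.87 and 5.09 on ipsilateral arrays 2 and 3, and 7.41 to 8.18 contralaterally. With that level as a covariate the 95% interval of the difference ran from -1.71 to -0.30 for Nr4a1 and from -2.06 to 0.88 for Egr1.

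Partners and cofactors of the members lay on both sides of 0, and none passed the adjusted limma test. Of all named genes tested, 50.9% were lower. Of the EGR corepressors and cofactors 2 of 5 tested genes were lower and 3 higher, with 0 below an unadjusted limma p of 0.05 and a median difference of 0.13, where the median over all 8754 named genes tested was -0.0029. Nab1, which represses EGR proteins, measured 8.67 ± 0.05 contralaterally and 8.43 ± 0.18 ipsilaterally (n = 3 each). Hcfc1 and the acetyltransferase gene Crebbp differed by 0.20 and 0.15. Of the NR4A dimer partners and cofactors 4 of 7 were lower, with a median of -0.03 and again 0 below 0.05. The retinoid X receptor genes Rxra and Rxrb differed by 0.17 and -0.09, and the histone deacetylase gene Hdac1 by 0.17.

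Regulators that act on NR4A and EGR promoters went in both directions, as did all named genes tested, of which 50.9% were lower. In the CREB and CRTC list 4 of 10 genes were lower (median 0.06) and 0 had an unadjusted p under 0.05. Creb1 measured 4.49 ± 0.36 and 3.99 ± 0.33, a dim signal, and was lower in 3 of 3 replicates. So was Sik1, a kinase that restrains CRTC coactivators, at -0.35, and with the replicate block both had an unadjusted limma p under 0.05 (adjusted p = 0.991 for both). Prkar1a, a regulatory subunit of protein kinase A, differed by -0.21 and the catalytic subunit gene Prkacb by 0.20. Of the SRF, ternary complex factor and ERK cascade genes 4 of 9 were lower (median 0.07), also with 0 below 0.05. Elk1, a ternary complex factor, measured 5.55 ± 0.46 and 6.18 ± 0.44, with differences of 1.35, 0.10 and 0.46 in replicates 1, 2 and 3. In the list of MEF2 factors and their calcium-dependent regulators 3 of 7 were lower (median 0.01). Of the 7, 1 had an unadjusted limma p under 0.05, where 1.16% of all probe sets were higher at that p. This was Mef2a, a factor that calcineurin activates, at 9.80, 9.74 and 9.79 contralaterally and 10.1, 9.93 and 10.2 ipsilaterally. Its sides did not overlap, with a difference of 0.29 (limma adjusted p = 1.00). The calcineurin subunit gene Ppp3ca differed by 0.25 and the MEF2 repressor gene Hdac5 by -0.27.

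Genes known as targets of the members had list medians near 0. The share of lower genes among all named genes tested was 50.9%. Of the neuronal EGR targets 2 of 10 were lower and 8 higher, with a median of 0.11 and 0 below an unadjusted p of 0.05. Arc, a synaptic immediate early gene, differed by -0.21 and the neurotrophin receptor gene Ngfr by 0.14. Nab2, named here for its role as an EGR target and corepressor and not by the rule, differed by 0.13. Of the other EGR1 targets 6 of 9 were lower (median -0.04). Ccnd1, which encodes cyclin D1, measured 7.54 ± 0.20 and 7.23 ± 0.11 (n = 3 each), the 1 gene of this list with an unadjusted limma p under 0.05 (adjusted p = 1.00). Over all probe sets 1.22% were lower at that p. Icam1, a dim adhesion molecule gene, differed by 0.27 and the growth factor gene Igf2 by -0.19. Of the NR4A targets 4 of 6 were lower (median -0.05) with 0 below 0.05, and Th and Slc6a3, the dopaminergic genes that Nr4a2 activates in the midbrain, were too dim to be tested. Bdnf, the neurotrophin gene and also too dim (mean 3.77), had the most negative difference of the list, -0.99, with signals of 4.33, 4.54 and 3.91 contralaterally and 2.86, 3.20 and 3.76 ipsilaterally. Its sides did not overlap, with a small step in replicate 3. It was named after its values were seen. Pfkl, a glycolytic enzyme gene, differed by -0.09 and the coregulator gene Cited2 by -0.09.

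**Figure D3:**
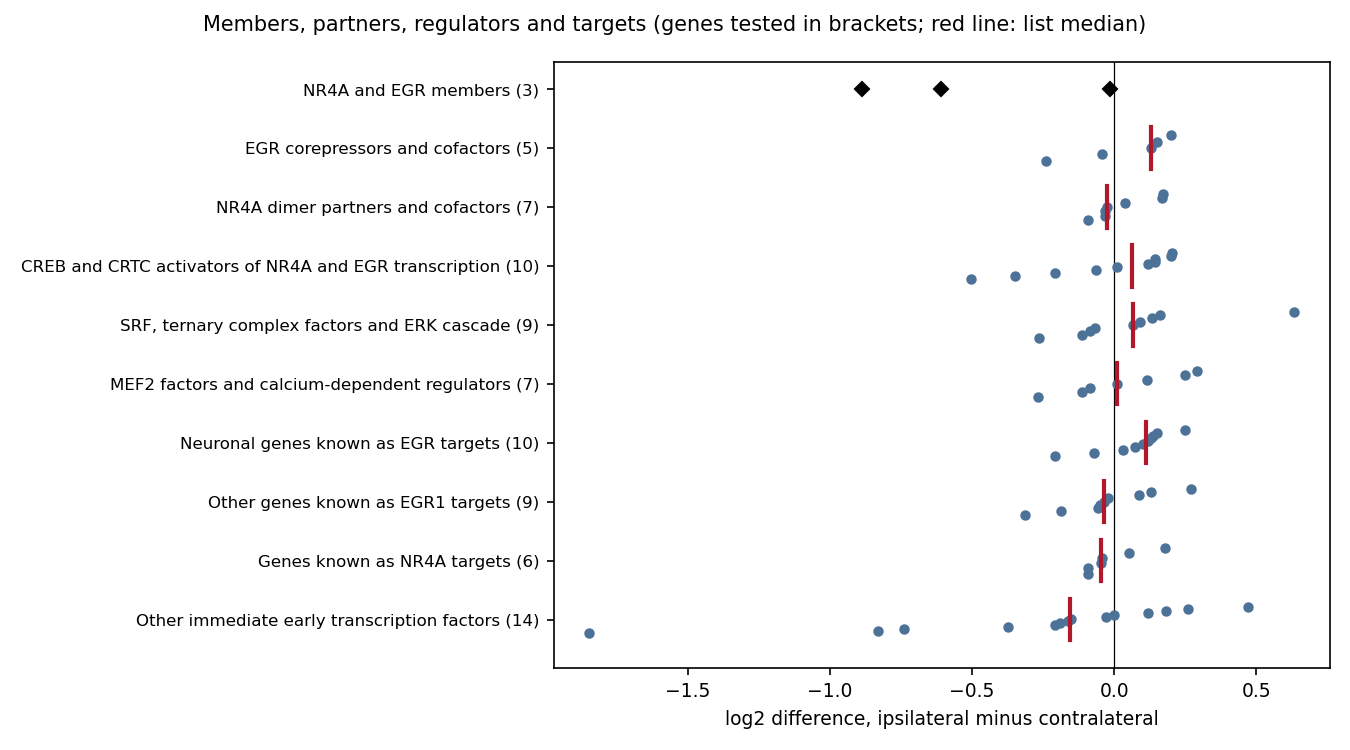
Log2 difference, ipsilateral minus contralateral, of each tested gene (points, brightest probe set) in the lists of cofactors, upstream regulators, targets and other immediate early factors, with the number of genes tested in brackets and the list median as a red line; black diamonds are Nr4a1, Egr1 and Nr4a2. The medians of the cofactor, regulator and target lists lie between -0.05 and 0.13, to the right of Nr4a1 (-0.89) and Egr1 (-0.61).

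Other immediate early transcription factors were the closest group for comparison. Of 14 tested, 10 were lower on the infused side and 4 higher, with a median of -0.16, where 50.9% of all named genes tested were lower. The median was -0.08 without contralateral replicate 1, -0.10 without contralateral replicate 3, -0.07 without ipsilateral replicate 3 and -0.28 without the replicate 2 pair. Without the replicate 3 pair it was 0.00258. An unadjusted limma p under 0.05 was reached by 3 lower genes, where 1.22% of all probe sets were lower at that p, and by 1 higher gene, where 1.16% were higher. Fos, the AP-1 subunit, differed by -2.16, -2.34 and -1.03 in replicates 1, 2 and 3. Ier2 differed by -0.37 and Maff, named after its values were seen, by -0.74. Jun, the partner of Fos, was the higher gene, at 0.47. The step of Fos in replicate 3 was also its smallest. Replicate 3 had the smallest difference in 6 of the 14 factors (42.9%) and in 40.5% of all named genes. Contralateral array 3 was the lowest of its side in 6 of the 14 as well, and in 35.1% of all named genes.

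The 5 genes most like Nr4a1, by the root mean square distance between profiles over the 6 arrays after each was centred on its own mean, were Mmp2 (0.21 log2 units), Dusp1 (0.23), Gpr3 (0.26), Racgap1 (0.27) and Arhgap24 (0.29), where the median over all genes was 0.56. Dusp1, a MAP kinase phosphatase, measured 9.72, 9.90 and 9.22 contralaterally and 8.95, 8.98 and 8.79 ipsilaterally. It shared with Nr4a1 the low contralateral array 3. Another probe set of Racgap1 differed by 0.08, where the one named here differed by -0.56. Another, dim probe set of Mmp2 differed by -0.57 and was highest on contralateral array 3. The 5 most like Egr1 were Junb (0.17), Cdk5r2 (0.28), Adm (0.29), Zfp36 (0.35) and Lpgat1 (0.38), where the median was 0.73. Another, dim probe set of Cdk5r2 differed by 0.23, where the one named here differed by -0.57. Other probe sets of Lpgat1 differed by -0.15, 0.001 and -0.16, where the one named here differed by -0.19. In none of these other Lpgat1 probe sets was contralateral array 3 the lowest of its side. Junb, a partner of Fos, measured 5.03, 5.33 and 3.89 contralaterally and 3.69, 4.62 and 3.46 ipsilaterally. Like Egr1 it was low on both arrays of replicate 3. Zfp36, which speeds the decay of messenger RNAs, measured 5.87, 6.20 and 5.29 contralaterally and 5.37, 5.63 and 5.02 ipsilaterally. Nr4a1 and Egr1 were 0.51 apart, which placed Nr4a1 at rank 103 among the genes most like Egr1 and Egr1 at rank 1695 among those most like Nr4a1. These likenesses rest on 6 arrays from 3 sets of mice and are a description.

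**Figure D4:**
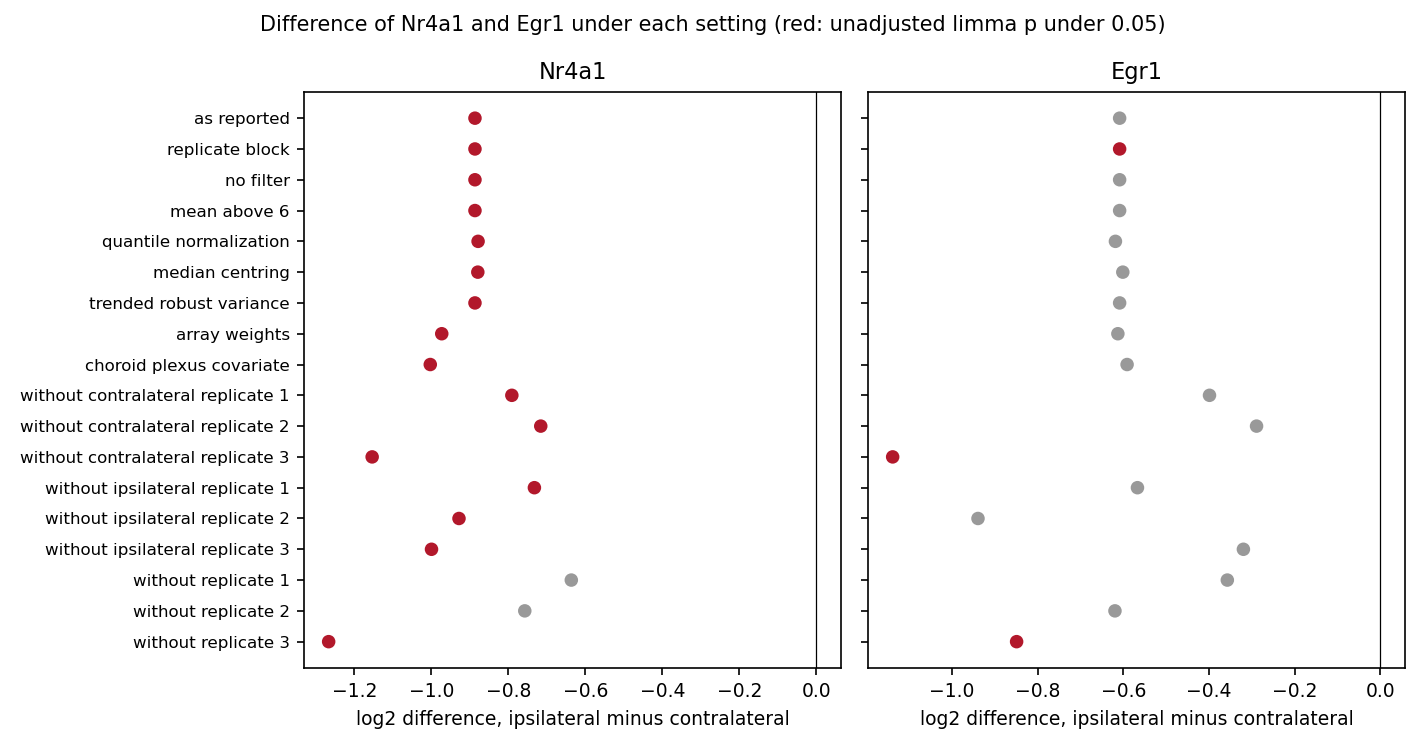
Log2 difference of Nr4a1 (left) and Egr1 (right) in the reported fit and in each alternative, in red where the unadjusted limma p was under 0.05. Both genes stay below 0 in all 17 alternatives, Nr4a1 from -1.27 to -0.64 and Egr1 from -1.14 to -0.29, and Egr1 is red with the replicate block, without contralateral replicate 3 and without the replicate 3 pair.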

How the data were processed

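Cochlear nucleus RNA from 6 samples, 3 ipsilateral and 3 contralateral to the infused cochlea, was measured on 1 array each, with sides and replicate numbers taken from the labels. The deposited log2 values come from GCRMA, per the submitters' processing notes, which corrects background, normalizes between arrays and summarises probes. Its settings are not given in the labels. The values ran from 1.40 to 15.85, which is a log2 scale. Normalization removes a change common to most genes. Precision is limited by the 3 arrays per side, as arrays have no read depth.

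Of 22690 probe sets, 64 controls and 7328 with a mean of 4 or less were left out. Genes were named from the platform annotation where a probe set had 1 symbol. The remaining 15298 were fitted with limma 3.58.1 (R 4.3.3; lmFit, eBayes), ipsilateral against contralateral with no block, with Benjamini-Hochberg adjustment over all of them and a threshold of 0.05. The fit was tested on simulated data.

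The members and the 19 gene lists were chosen with earlier results of these data known. Lists are given as counts and medians, each gene by its brightest tested probe set. Named were all members, per list the 3 genes of smallest p and 2 of highest mean (not all are printed), and the 5 genes most like Nr4a1 and Egr1. Same-numbered samples were read as both sides of the same mice, from the series description. Their deviations from the side means correlated at 0.0911, 0.0440 and 0.568 across probe sets for replicates 1, 2 and 3. Among differently numbered arrays, contralateral 1 with ipsilateral 2 gave 0.300 and contralateral 2 with ipsilateral 1 gave 0.188. Both exceeded the matched values of replicates 1 and 2. The other differently numbered pairs lay between -0.370 and -0.219. Alternatives were the replicate block, 2 other filters, quantile normalization, median centring, a trended robust variance, array weights, a choroid plexus covariate, other thresholds, averaging the probe sets of a gene, and leaving out each array or replicate.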

Additional observations from a re-analysis of the deposited data

How the results depend on the processing

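Nr4a1 and Egr1 kept their direction and missed the adjusted threshold under all alternatives run. The number of member probe sets past the adjusted threshold was 0 under all alternatives. That of member probe sets with an unadjusted limma p under 0.05, 1 as reported (Nr4a1), was 2 with the replicate block and 0 at a threshold of 0.01, and lay between 0 and 2 when an array or replicate was left out. It was 2 without contralateral replicate 3 or the replicate 3 pair, and 0 without the replicate 1 pair or the replicate 2 pair. Over all probe sets 0 passed the adjusted threshold as reported, between 0 and 5 when an array or replicate was left out (5 without ipsilateral replicate 1 and 2 without the replicate 1 pair), none of them a member. Over the cofactor, regulator, target and immediate early lists 6 genes had an unadjusted p under 0.05, with 10 under the replicate block, 1 at a threshold of 0.01 and between 3 and 9 when an array or replicate was left out (3 without contralateral replicate 1). Over all probe sets tested, 2.38% had an unadjusted limma p under 0.05 as reported and 3.72% with the block. The lists that gained with the block were CREB and CRTC (0 to 2), other EGR1 targets (1 to 2) and immediate early factors (4 to 5). Among markers the block moved this count from 0 to 1 for astrocytes (Sox9), from 0 to 1 for endothelium (Kdr) and from 1 to 3 for cerebellar cells, and it changed no call after adjustment. Without an array or replicate, the medians of the cofactor, regulator and target lists lay between -0.09 and 0.23. The median difference of the 7 member genes ranged from -0.19 (without contralateral replicate 3) to 0.00242 (without contralateral replicate 2). The difference of Nr4a1 minus that of Egr1 was -0.28 as reported and between -0.68 (without ipsilateral replicate 3) and 0.0105 (without ipsilateral replicate 2). The tested Nr4a2 probe set, at -0.01, turned to 0.00857 with array weights, 0.0280 with the choroid plexus covariate and between 0.0117 and 0.14 without contralateral replicate 1 or 2, ipsilateral replicate 3 or the replicate 2 pair, with a range of -0.19 to 0.14 over all fits that left out an array or replicate. It could not be tested at a mean above 6. Except where fewer samples were fitted, the cause was not tested. Dim signal left 4 of the 7 genes with no tested probe set. It also limits Nr4a2, whose tested probe set had a mean of 4.04.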
